A study of Homo sapiens with 12 samples.

Results

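The metallothionein genes MT2A, MT1E, MT1L, MT1A, MT1M, MT1X, MT1F, MT1G and MT1H were examined in RNA sequencing data of PANC-1 cells, a human pancreatic cancer cell line. They are 9 of the 23284 gene symbols with a value in each library, found by their symbols, which were chosen by the difference in their FPKM between the populations described next. PANC-1 cells had been infected with a retrovirus that carries the fluorescent protein ZsGreen fused to the degron of ornithine decarboxylase, which the proteasome recognizes, so that ZsGreen stays in cells with low proteasome activity. The infected line, in which few cells were ZsGreen positive, is degron (-), and degron (++) cells are the brightest cells of a population made from it by repeated sorting and culture, used as a model of cancer stem-like cells. Each population is thus a single infected line or its sorted descendant, and cells of both were grown with G418. The 12 libraries, 2 in each of 6 groups, hold both populations unirradiated at 48 h (0 Gy), and 30 h or 48 h with 4 Gy. The labels leave unsaid from when the hours were counted or whether the 2 libraries of a group came from separate cultures, so the errors given here cover the spread between libraries.

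Metallothioneins are small proteins rich in cysteine, and they bind zinc, copper and cadmium through the thiol groups of these residues. Their genes lie together in a cluster and are switched on by metals through the transcription factor MTF1, which binds short metal response elements in their promoters. Glucocorticoids and oxidative stress also raise their RNA in many cells. MT2A is the most abundant metallothionein RNA in most human tissues, the MT1 genes code for closely related proteins, and MT1L is a copy that is not counted among the coding genes.

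The coding sequences are shown because the cysteine codons define the family and because the copies are alike enough to share reads. In the GENCODE transcripts used, which have 3 exons each on chromosome 16, the 8 coding genes had coding sequences of 186 bases with 20 cysteine codons before the stop codon. Cysteine codons are in capitals for MT2A, MT1E, MT1M and MT1X. In the MT1L sequence, the stretch of transcript MT1L-201 that aligns with the coding sequence of MT1E, capitals mark the first stop codon in frame.
MT2A: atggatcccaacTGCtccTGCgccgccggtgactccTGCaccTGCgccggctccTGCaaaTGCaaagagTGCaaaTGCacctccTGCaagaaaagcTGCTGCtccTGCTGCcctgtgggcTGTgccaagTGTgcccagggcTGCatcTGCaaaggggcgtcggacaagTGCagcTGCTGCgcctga
MT1E: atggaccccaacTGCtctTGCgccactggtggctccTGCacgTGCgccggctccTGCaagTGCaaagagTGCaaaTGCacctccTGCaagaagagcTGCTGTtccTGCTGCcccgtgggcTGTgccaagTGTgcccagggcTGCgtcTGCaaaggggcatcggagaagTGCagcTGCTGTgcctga
MT1M: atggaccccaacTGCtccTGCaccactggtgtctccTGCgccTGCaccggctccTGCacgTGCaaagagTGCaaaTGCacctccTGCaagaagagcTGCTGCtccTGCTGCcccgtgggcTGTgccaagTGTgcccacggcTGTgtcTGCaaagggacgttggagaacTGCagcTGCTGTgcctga
MT1X: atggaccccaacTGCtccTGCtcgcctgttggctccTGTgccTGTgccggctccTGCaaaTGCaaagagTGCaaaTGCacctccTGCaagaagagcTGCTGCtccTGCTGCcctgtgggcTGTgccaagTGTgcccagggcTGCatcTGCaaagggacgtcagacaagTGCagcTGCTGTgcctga
MT1L: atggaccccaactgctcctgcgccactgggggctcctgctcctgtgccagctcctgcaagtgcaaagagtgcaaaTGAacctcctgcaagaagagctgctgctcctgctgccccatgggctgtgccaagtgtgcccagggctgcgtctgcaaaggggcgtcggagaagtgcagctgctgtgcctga

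MT1L carried the stop at codon 26, where MT1E has a cysteine codon. The substitution was C78A, with MT1E as the reference and positions counted from the A of its start codon. There were 7 cysteine codons before this stop and 12 after it. The aligned stretch of MT1L shared 176 of 186 bases with MT1E (94.6%). Over the 36 pairs of the 9 genes, identity lay between 88.7% for MT1X with MT1F and 95.2% for MT2A with MT1G.

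Near-identical copies can exchange reads when fragments are assigned, so windows of 50 bases of each transcript were looked up in the transcripts of all other genes. Only exact matches counted, and the read length is not known, so the shares may overstate how well the copies can be told apart. The share of windows held by no other gene was 95.1% for MT2A, 94.7% for MT1E, 95.6% for MT1L, 94.2% for MT1A, 92.9% for MT1M and 96.4% for MT1F. It was lower for MT1G (79.8%) and MT1H (79.6%). For MT1X it was 54.9%, and 19.7% within its coding sequence, so the MT1X values are the least certain of the family on this measure. Within the coding sequence, or the aligned stretch of MT1L, the share was 73.7% for MT2A, 78.1% for MT1E and 88.3% for MT1L. It was 85.4% for MT1A, 89.1% for MT1M, 83.2% for MT1F, 55.5% for MT1G and 56.2% for MT1H.

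Promoter sequence is shown for the metal response element, the site of MTF1. The RefSeq promoter table (GRCh38.p14) held 3 of the members, MT2A, MT1H and MT1X. The 250 bases before the start of transcription were searched on both strands for the core of the element, TGCACNC or TGCGCNC. The core occurred 7 times before MT2A, 8 times before MT1H and 4 times before MT1X, and no match overlapped another. Among all 35116 promoters of the table, 24.8% held at least 1 match, 0.370% at least 4, 0.0313% at least 7 and 0.0171% at least 8. SLC30A1, a zinc exporter, held 1 match, and MTF1 itself held 0. The matches of MT2A and MT1X follow with up to 8 bases on each side, the core in capitals, all written on the plus strand with bases counted back from the start of transcription.
MT2A, chr16:56608334-56608352, bases 246 to 240: ccgcTGCACCCagcccctt
MT2A, chr16:56608408-56608430, bases 168 to 162: cgcggcccGTGTGCAgagccggg
MT2A, chr16:56608423-56608445, bases 153 to 147: gagccgggTGCGCCCggcccagt
MT2A, chr16:56608437-56608459, bases 139 to 133: cggcccagTGCGCGCggccgggt
MT2A, chr16:56608488-56608510, bases 88 to 82: cgcggggcGTGTGCAggcagcgc
MT2A, chr16:56608522-56608544, bases 54 to 48: ggggctttTGCACTCgtcccggc
MT2A, chr16:56608568-56608583, bases 8 to 2: tgccgcgcTGCACTCc
MT1X, chr16:56682312-56682334, bases 150 to 144: ccccgcggTGCGCCCggcgctgg
MT1X, chr16:56682340-56682362, bases 122 to 116: cgggttgcTGCACCCggcccagg
MT1X, chr16:56682384-56682406, bases 78 to 72: gcaggggcGGGTGCAaggacgag
MT1X, chr16:56682409-56682431, bases 53 to 47: ggggcctcTGCGCCCggccctct

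The values are FPKM, the fragments of a gene scaled by its exon length and by the reads mapped in the library, and come without counts, so how many reads a value rests on is not known. Steps between low FPKM values put the depth at 0.858 to 1.01 times the median library in degron (++) and 0.973 to 1.17 times in degron (-). Each of the 12 libraries was most like another library of its own population. The 6 libraries taken as degron (-) carry labels that disagree, since the titles give ZsGreen-negative cells and the description field has d+. The keratins KRT8, KRT18 and KRT19, markers of the ductal epithelial origin of PANC-1, were abundant in every library, with 667 to 2981 FPKM. VIM, the mesenchymal filament that PANC-1 cells are known to contain, had 13.2 to 19.2 FPKM in degron (++) and 2376 to 2711 in degron (-). Of 8 markers of other cell types, CD3E was at 0 throughout and 6 more stayed under 1 FPKM. CD68, a lysosomal protein of macrophages that tumor cell lines also express, had 2.91 to 4.62 FPKM in degron (++) and 124 to 165 in degron (-), whereas the leukocyte gene PTPRC had at most 0.055. VIM and CD68 thus differed between the same libraries as the metallothioneins, and their part in the results was not tested. In a sorted population, fewer cells with a transcript and less of it per cell cannot be told apart.

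Differences are given on the scale of log2(FPKM + 1), as degron (++) minus degron (-), with a standard error (SE) from a fit with limma over all 12946 genes that had at least 1 FPKM in at least 2 libraries. Of the 9 members, 7 passed this filter, MT1L and MT1M only through the degron (-) libraries. Since the members were chosen with their values in these libraries known, differences of members are a description and carry no p-value.

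MT2A, the most abundant member, was lower in degron (++) cells in every condition. At 0 Gy and 48 h its FPKM was 324 and 361 in the degron (++) libraries and 1116 and 1137 in the degron (-) libraries. At 4 Gy and 30 h it was 412 and 434 against 1275 and 1212. At 4 Gy and 48 h it was 462 and 419.9 against 1219.7 and 1259.9. The lowest degron (-) library was thus well above the highest degron (++) library. Differences between the populations were common, since 77.7%, 79.1% and 76.7% of all tested genes passed an adjusted p under 0.05 (limma) by condition. The share of all genes without overlap between the populations is not given here, so a lack of overlap of a member is a description only. The mean of degron (-) was 3.29, 2.94 and 2.81 times that of degron (++) in this order of conditions, and the log2 differences were -1.72, -1.55 and -1.49 (SE 0.063 each). Among all gene symbols ranked by mean FPKM, MT2A held place 47 in degron (-) and place 208 in degron (++) cells.

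**Figure D1:**
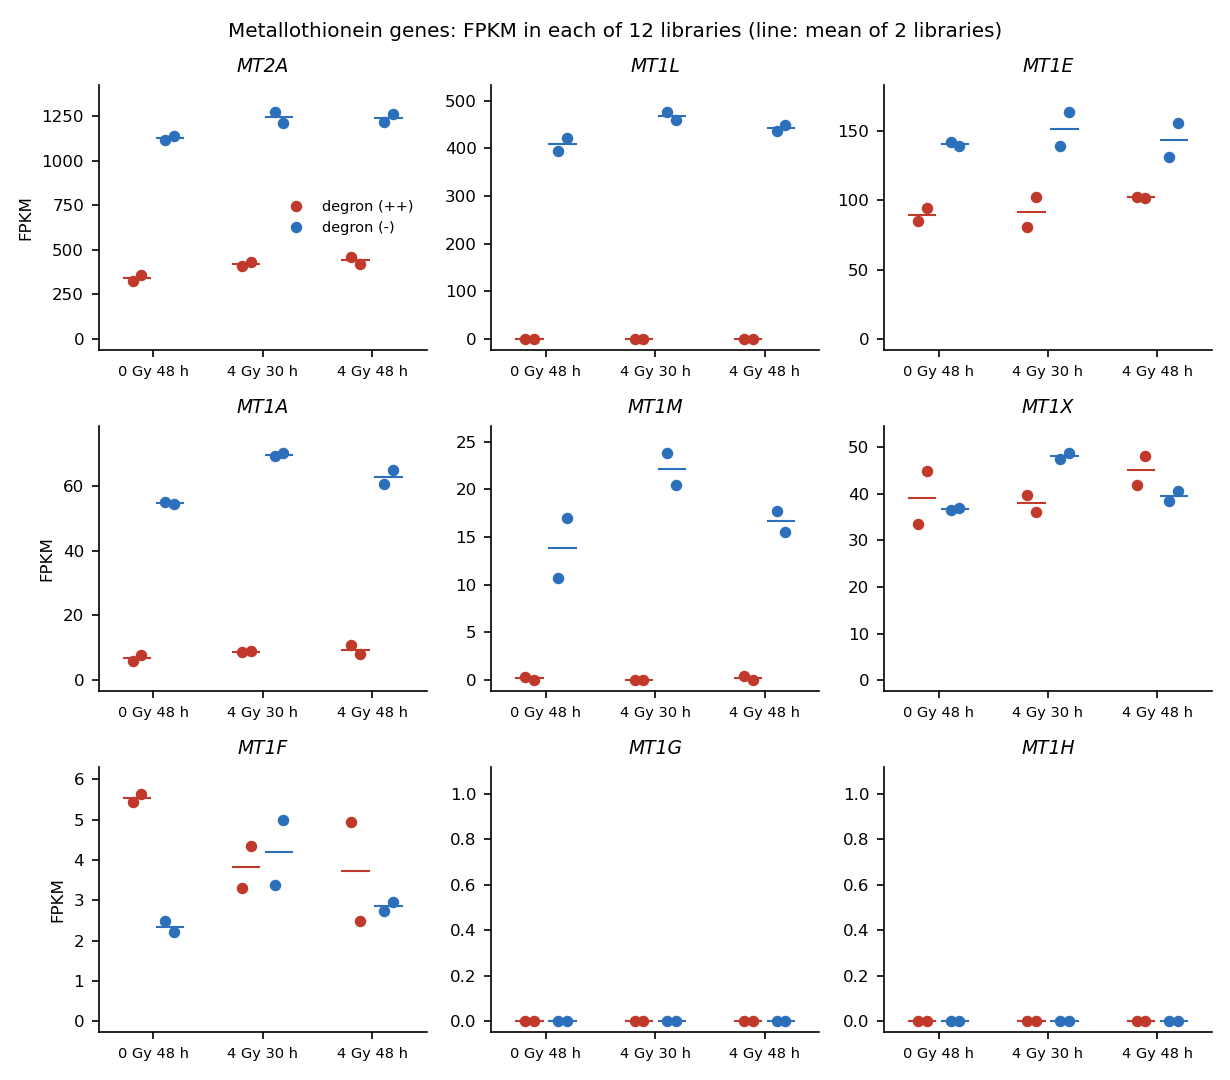
FPKM of each metallothionein gene (linear vertical axes, a scale of its own for each gene) in the 2 libraries of each group, by dose and time on the horizontal axis. Points are libraries, lines are means of 2 libraries, red is degron (++) and blue is degron (-). MT2A, MT1L, MT1E, MT1A and MT1M were higher in every degron (-) library than in every degron (++) library. MT1X and MT1F overlapped, and MT1G and MT1H were listed at 0 throughout. The share of all genes without overlap is not given here.

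MT1E and MT1A, which code for MT1 proteins, were also lower in degron (++) cells, by different amounts. MT1E had FPKM of 84.9 and 94.3 in degron (++) against 142 and 139 in degron (-) cells at 0 Gy and 48 h, 80.6 and 103 against 139 and 164 at 4 Gy and 30 h, and 102 and 102 against 131 and 156 at 4 Gy and 48 h. The populations did not overlap, and the mean of degron (-) was 1.57, 1.65 and 1.40 times that of degron (++) cells. The log2 differences of MT1E were -0.64, -0.72 and -0.48 (SE 0.125). MT1A had FPKM of 5.83 and 7.87 in degron (++) against 55.2 and 54.5 in degron (-) cells at 0 Gy and 48 h, 8.72 and 8.95 against 69.3 and 70.4 at 4 Gy and 30 h, and 10.8 and 7.93 against 60.8 and 65.2 at 4 Gy and 48 h. Its degron (-) means were 8.01, 7.90 and 6.72 times the degron (++) means, with log2 differences of -2.84, -2.85 and -2.64 (SE 0.139). MT1A therefore differed by more than MT2A, and MT2A by more than MT1E, in each condition.

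MT1L and MT1M were the members that were close to absent from the degron (++) libraries. MT1L, the copy with the early stop codon, was listed at 0 in 4 of 6 degron (++) libraries. The others had 0.386 and 0.406 FPKM, a replicate at 30 h and a replicate at 48 h, both with 4 Gy. In degron (-) cells it had 395 and 422 FPKM without irradiation, 477 and 461 FPKM at 30 h with 4 Gy, and 437 and 449.8 FPKM at 48 h with 4 Gy. This put MT1L at place 171 of all gene symbols in degron (-) cells, next to MT2A among the metallothioneins. MT1M, a coding gene, was listed at 0 in 4 of 6 degron (++) libraries and had 0.364 and 0.382 FPKM in the others. In degron (-) cells it had 10.6 and 16.9 FPKM without irradiation, 23.8 and 20.5 FPKM at 30 h with 4 Gy, and 17.8 and 15.5 FPKM at 48 h with 4 Gy. No fold is given for these genes, since degron (++) libraries were at 0.

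MT1X and MT1F did not follow the other members. MT1X had FPKM of 33.6 and 44.9 in degron (++) against 36.5 and 37.0 in degron (-) cells at 0 Gy and 48 h, and the libraries overlapped. At 4 Gy and 30 h the degron (++) libraries were lower, with 39.9 and 36.1 against 47.5 and 48.8, and at 4 Gy and 48 h they were higher, with 42.0 and 48.2 against 38.4 and 40.6. Its log2 differences were 0.08, -0.34 and 0.18 (SE 0.119), and rescaling every library to the same sum (TPM) turned the first to -0.13 and the last to -0.08. The sum that TPM rescaling divides by is itself uneven, since 1 small RNA gene, MIR622, held 28.6% to 30.0% of it in degron (++) and 22.5% to 27.1% in degron (-) libraries, and its part in the rescaled values was not tested. Without replicate 2 of degron (++) the first was also -0.13. MT1F, a member with few transcripts in these cells, had FPKM of 5.43 and 5.64 in degron (++) against 2.47 and 2.2 in degron (-) cells at 0 Gy and 48 h. At 4 Gy the populations overlapped, with 3.31 and 4.34 against 3.39 and 5.0 at 30 h and 4.94 and 2.49 against 2.74 and 2.96 at 48 h. The log2 differences of MT1F were 0.97, -0.10 and 0.24 (SE 0.235). Quantile normalization turned that at 4 Gy and 30 h to 0.06, and without replicate 1 of degron (++) that at 4 Gy and 48 h was -0.14.

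MT1G and MT1H were listed at 0 in all 12 libraries. The promoter of MT1H held more matches to the metal response element than those of MT2A and MT1X. The other metallothionein symbols were low. MT4, the form known from squamous epithelium, and MT1IP were at 0 in all libraries. MT3, the form known from brain, was at 0 in degron (++) and at most 0.380 in degron (-) cells, MT1B at 0 and at most 0.478, and MT1JP at 0 and at most 0.789. MT1DP had 0 to 0.538 FPKM in degron (++) and 0 to 2.54 in degron (-) cells.

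Over all 12946 genes the median log2 difference between the populations was -0.02, -0.02 and -0.01. After TPM rescaling the median over all genes was -0.21, -0.27 and -0.25, and MT2A differed by -1.93, -1.84 and -1.76, MT1E by -0.85, -1.01 and -0.74, and MT1A by -3.07, -3.14 and -2.91. The directions of MT2A, MT1E, MT1A, MT1L and MT1M were the same after TPM rescaling and after quantile normalization. This is a description only, since the members were chosen by the difference between the populations. MT1L and MT1M were so close to 0 in degron (++) libraries that such rescaling could not turn them. TPM rescaling also moved the median of all genes in the direction of these members.

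The summed FPKM of the 9 members lay between 454 and 623 in degron (++) and between 1757 and 2035 in degron (-) libraries. At 0 Gy and 48 h the sum was 484 ± 41.9 in degron (++) and 1783 ± 36.2 in degron (-) cells (SD, n = 2 each), a ratio of 3.69. With 4 Gy the ratio was 3.55 at 30 h and 3.24 at 48 h. Without MT1L it was 2.84, 2.72 and 2.5. As a share of all FPKM in a library, the sum was 0.0547% to 0.0705% for degron (++) and reached 0.230% to 0.288% for degron (-) cells, with MIR622 counted in the total.

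The makeup of this sum also differed. MT2A was 70.3% to 75.7% of it in degron (++) and 61.2% to 63.9% in degron (-) libraries. MT1E made up 14.8% to 18.7% against 6.83% to 8.28%, and MT1X 6.15% to 8.74% against 2.01% to 2.47%. MT1L was 22.5% to 23.4% of the sum in degron (-) and at most 0.0658% in degron (++) libraries. MT1A contributed 1.29% to 1.74% of the degron (++) sums, less than the 3.01% to 3.55% of the degron (-) sums. All these shares are of a sum that holds MT1L. The degron (-) to degron (++) ratio of MT2A means was 3.29, 2.94 and 2.81 by condition. For the sum without MT1L it was 2.84, 2.72 and 2.50. With MT1L left out, the mean share of MT2A would thus be larger in degron (-) cells. In degron (++) cells the order of levels per length was MT2A, MT1E, MT1X, MT1A and MT1F in each condition, with no overlap between neighbors in this order. In degron (-) cells it was MT2A, MT1L, MT1E, MT1A, MT1X, MT1M and MT1F, again with no overlap. MT1A and MT1X thus exchanged places between the populations.

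**Figure D2:**
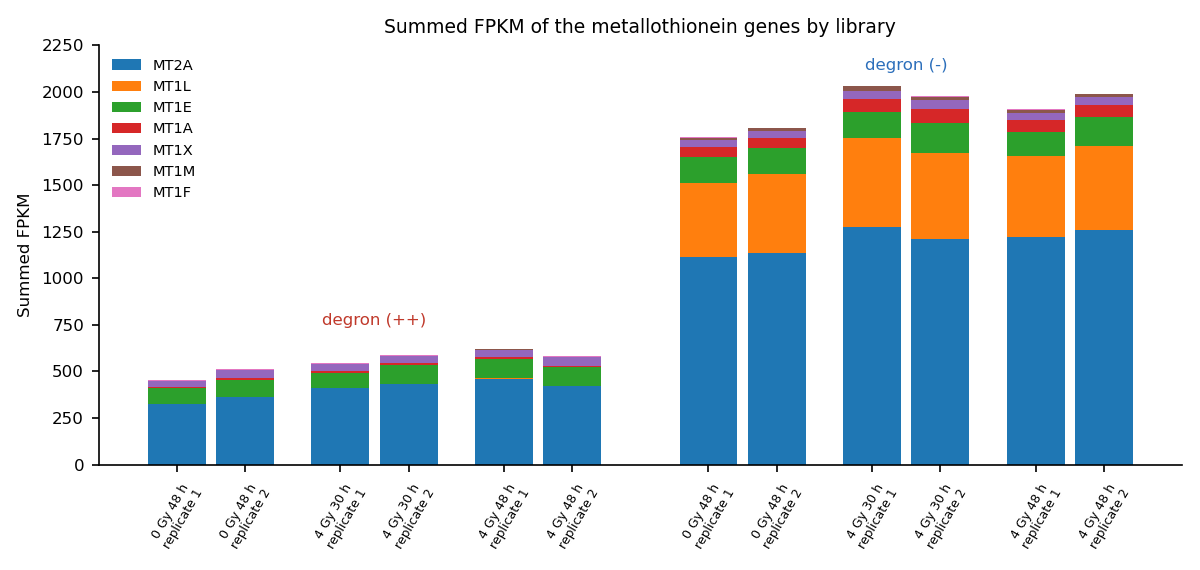
Summed FPKM of the metallothionein genes (vertical axis, starting at 0) in each of the 12 libraries, stacked by gene. The degron (++) libraries lie between 454 and 623 and the degron (-) libraries between 1757 and 2035, of which MT1L (orange) is 22.5% to 23.4%.

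For MT2A, MT1E and MT1A, differences with dose were smaller than those between the populations, by which the members were chosen. This comparison of sizes is therefore a description only. For MT1F and MT1X the order of sizes varied by condition. MT1F had a dose difference of -0.52 in degron (++) cells. Its population differences were 0.97 at 0 Gy, and -0.10 and 0.24 at 4 Gy. MT1X had a dose difference of 0.21 in degron (++) cells, beside population differences of 0.08 at 0 Gy, and -0.34 and 0.18 at 4 Gy. Between 4 Gy and 0 Gy at 48 h, MT2A was higher after 4 Gy by 0.36 (SE 0.063) in degron (++) cells, a ratio of means of 1.29, and by 0.14 (SE 0.063) in degron (-) cells, a ratio of 1.10. Both irradiated libraries were above both unirradiated libraries in each population. MT1A differed in the same direction, by 0.40 and 0.20 (SE 0.139), also without overlap. MT1E differed by 0.19 and 0.02 (SE 0.125) and overlapped in degron (-) cells, and MT1X by 0.21 and 0.10 (SE 0.119) with overlap in degron (++) cells. In degron (-) cells MT1L differed by 0.12 (SE 0.169) without overlap, and MT1M by 0.28 (SE 0.232) with overlap and by -0.03 without replicate 1 at 0 Gy. MT1F was lower after 4 Gy in degron (++) cells, by -0.52, and higher in degron (-) cells, by 0.21 (SE 0.235 each). Leaving out replicate 1 or 2 of degron (++) at 4 Gy put the former at -0.91 or -0.14. The MT1X value in degron (++) cells was 0.00 without replicate 1 and 0.41 without replicate 2 at 0 Gy.

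Between 48 h and 30 h with 4 Gy, differences of the members were small in degron (++) cells. The log2 difference (48 h minus 30 h) was 0.06 for MT2A (SE 0.063), 0.16 for MT1E (SE 0.125), 0.06 for MT1A (SE 0.139), -0.08 for MT1F (SE 0.235) and 0.24 for MT1X (SE 0.119), where only MT1X had no overlap between the time points. In degron (-) cells MT2A differed by 0.00 and MT1E by -0.08, with overlap. MT1L, MT1A, MT1M, MT1X and MT1F were lower at 48 h without overlap, by -0.08, -0.15, -0.39, -0.28 and -0.41. Their SEs were 0.169, 0.139, 0.232, 0.119 and 0.235 in this order. With 2 libraries a group, genes can fail to overlap without a true difference, and the share over all genes is not given here. A lack of overlap with time or dose is therefore a description only. In degron (++) cells the time differences of MT2A, MT1E, MT1A and MT1F changed sign with 1 library left out.

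**Figure D3:**
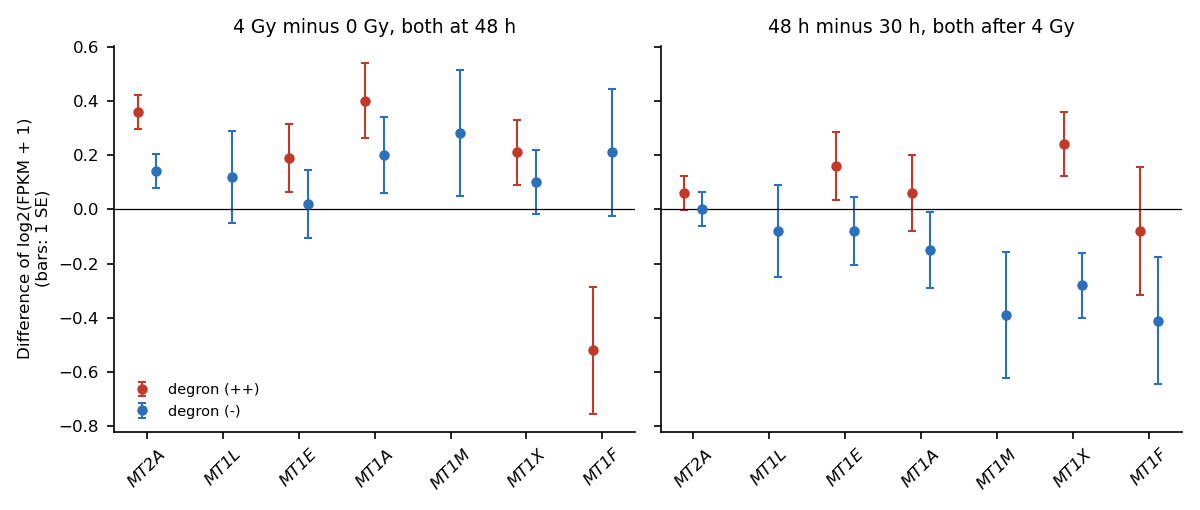
Differences of log2(FPKM + 1) with dose (left) and time (right) for the members that passed the filter. The left is 4 Gy minus 0 Gy at 48 h, and the right is 48 h minus 30 h, both with 4 Gy. Points are differences of the means of 2 libraries, bars are 1 SE, red is degron (++) and blue is degron (-). MT1L and MT1M are left out of degron (++), where most libraries were at 0. The dose differences of MT2A were 0.36 and 0.14, and MT1X differed by 0.24 and -0.28 with time.

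Along chromosome 16, the 15 metallothionein symbols in the files followed each other with 0 other genes between them in RefSeq order. The order was MT4, MT3, MT2A, MT1L, MT1E, MT1M, MT1JP, MT1A, MT1DP, MT1B, MT1F, MT1G, MT1H, MT1IP and MT1X. The members that were lower in degron (++) cells in each condition, MT2A, MT1L, MT1E, MT1M and MT1A, lay in the first part of this row, and MT1F and MT1X lay after them.

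The flanking genes gave a comparison that the choice of members did not use. The threshold for these and the genes that follow was an adjusted p under 0.05 (limma with Benjamini-Hochberg adjustment over all 12946 genes). Of 4 genes with values before the row, NUDT21, a factor of messenger RNA 3' end processing, was higher in degron (++) cells by 0.88, 0.99 and 0.84 in the 3 conditions (SE 0.058, adjusted p at most 1.29e-06, limma). OGFOD1, a hydroxylase of a ribosomal protein, was higher by 0.71, 0.90 and 0.68 (SE 0.059). BBS2, a protein of the cilium base, was higher by 0.33, 0.19 and 0.24 (SE 0.047), but after TPM rescaling its differences were 0.14, -0.07 and 0.00. GNAO1, a G protein subunit of neurons, was lower by -0.93, -0.92 and -1.15 (SE 0.111) at 0.280 to 0.496 against 1.43 to 2.07 FPKM.

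Of the 5 genes after the row, NUP93, a nuclear pore protein, was higher by 0.28, 0.52 and 0.46 (SE 0.050), and the first of these did not pass after TPM rescaling (0.07). HERPUD1, of the stress response of the endoplasmic reticulum, was higher by 0.80, 0.92 and 0.73 (SE 0.065). NLRC5, an activator of class I histocompatibility genes, was higher by 1.57, 1.67 and 1.27 (SE 0.112). SLC12A3 and CETP had at most 0.139 FPKM and were not tested. NUDT21, OGFOD1, HERPUD1 and NLRC5, which lie on either side, were therefore past the threshold in the direction opposite to that of MT2A, with FPKM and with TPM. Such calls were common, since 37.6%, 38.3% and 37.1% of all tested genes passed as higher in the 3 conditions with FPKM.

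**Figure D4:**
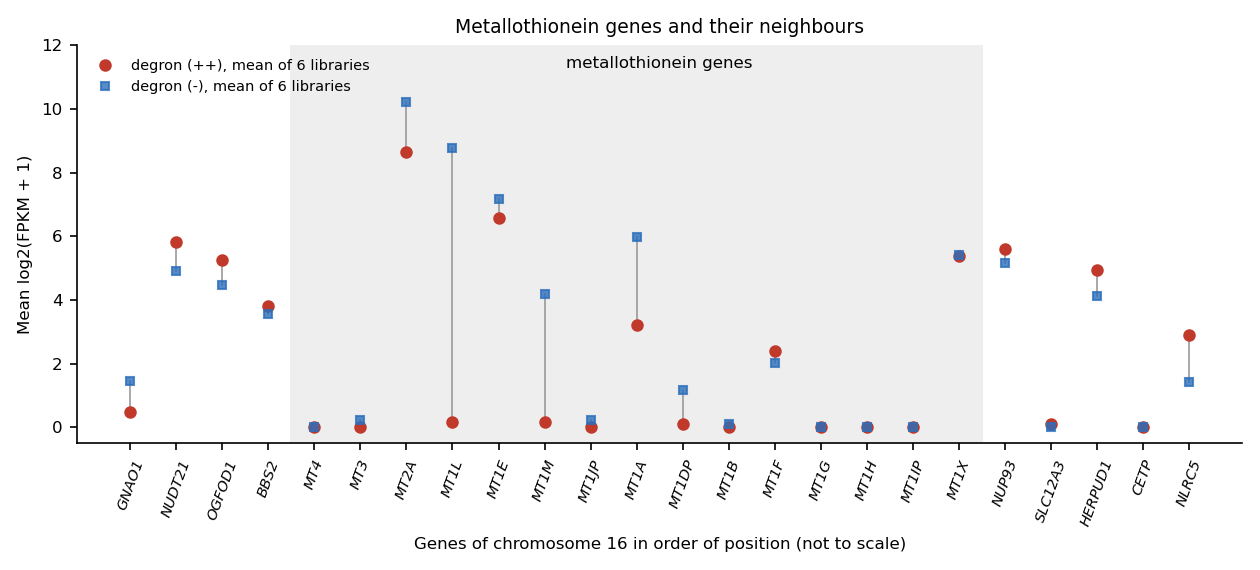
Mean log2(FPKM + 1) over 6 libraries of degron (++) (red circles) and degron (-) (blue squares) for the metallothionein genes (shaded), 4 genes before them and 5 after them, in order along chromosome 16 with equal spacing. Grey lines join the populations. MT2A, MT1L, MT1E, MT1M and MT1A were lower in degron (++) cells, while NUDT21, OGFOD1, HERPUD1 and NLRC5 were higher.

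The next gene lists, like the members, were chosen with earlier results of these data known, so their counts and adjusted p-values are a description. The genes that regulate metallothioneins and handle metals were compared, with lists of 59 genes, of which 50 were tested. These lists also hold stress response genes and glucocorticoid targets, which do not all handle metals. All of them are called metal-handling genes here for short. At 0 Gy and 48 h, 20 of them were higher in degron (++) cells, 21 were lower, and 9 did not pass the threshold. At 4 Gy and 30 h, 23 were higher and 19 lower, and at 4 Gy and 48 h, 18 and 19. Of all tested genes, 77.7% passed the threshold at 0 Gy (37.6% higher and 40.2% lower), 79.1% at 4 Gy and 30 h (38.3% and 40.8%) and 76.7% at 4 Gy and 48 h (37.1% and 39.6%), so the shares of the lists were close to those of all genes. The median log2 difference of the listed genes at 0 Gy was 0.00. After TPM rescaling the split was 13 higher and 25 lower, 15 and 24, and 12 and 29, or 34.2%, 38.5% and 29.3% higher among those past the threshold, beside 35.9%, 33.3% and 31.7% among all genes.

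Of 6 metallothionein regulators, 2 were higher in degron (++) cells and 3 lower at 0 Gy. MTF1, the metal-sensing factor, had 5.80 to 5.86 FPKM in degron (++) and 6.06 to 6.15 in degron (-) cells at 0 Gy, and 5.57 to 6.40 over all libraries. Its log2 differences were -0.06, 0.05 and -0.03 (SE 0.068, adjusted p = 0.460, 0.490 and 0.738, limma). Over the alternative settings its adjusted p lay between 0.0208 and 0.922 at 0 Gy and between 0.0156 and 0.951 at 4 Gy and 48 h, and the lowest value of each came from TPM rescaling, which put MTF1 past the threshold as lower in degron (++) cells. NR3C1, the glucocorticoid receptor, was higher in degron (++) cells, at 45.7 to 55.1 against 14.9 to 19.2 FPKM, with log2 differences of 1.56, 1.56 and 1.30 (SE 0.054, adjusted p at most 4.96e-08, limma). STAT3, a factor that acts in the induction of metallothioneins by cytokines, was lower, at 25.7 to 28.5 against 47.5 to 53.0 FPKM, by -0.93, -0.88 and -0.89 (SE 0.057). NFE2L2, the NRF2 factor of oxidative stress, was lower by -0.16, -0.27 and -0.15 (SE 0.051), and at 0 Gy not past the threshold without replicate 2 of either population. USF1, which binds E-box elements, differed by 0.20, 0.18 and 0.09 (SE 0.075), was past the threshold at 0 Gy only, and lost that call after TPM rescaling, which also turned its direction, with no filter on low values, and without replicate 2 of degron (++) or either replicate of degron (-).

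Among the zinc importers, 5 of 11 tested were higher in degron (++) cells at 0 Gy, and 2 were lower. SLC39A8, which carries zinc, manganese and cadmium into cells, was higher at 14.3 to 19.8 against 2.24 to 4.12 FPKM, with log2 differences of 2.24, 2.42 and 1.99 (SE 0.110, adjusted p at most 3.1e-07, limma). SLC39A10 was higher at 27.8 to 32.3 against 9.96 to 12.8 FPKM, by 1.40, 1.45 and 1.14 (SE 0.071). SLC39A3 was lower at 12.1 to 17.2 against 26.5 to 36.8 FPKM, by -1.26, -1.13 and -0.86 (SE 0.113). SLC39A9 was higher by 0.38, 0.39 and 0.27 (SE 0.073), and this was not past the threshold after TPM rescaling in any condition.

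Of the zinc exporters, 6 were tested, and 3 were higher and 3 lower at 0 Gy. SLC30A1, the exporter of the plasma membrane and itself a known MTF1 target, was higher in degron (++) cells at 21.3 to 25.7 against 13.6 to 17.8 FPKM. Its log2 differences were 0.59, 0.48 and 0.55 (SE 0.089, adjusted p = 0.000229, 0.000860 and 0.000374, limma), and at 4 Gy and 30 h the call was lost after TPM rescaling (adjusted p = 0.0979, over all alternatives there 0.000833 to 0.0979). MT2A, MT1E and MT1A were lower in degron (++) cells in each condition, while MT1X and MT1F changed direction between conditions. How SLC30A1 relates to these genes was not tested. SLC30A7, of the Golgi, was higher by 0.79, 0.90 and 0.84 (SE 0.069), and SLC30A4, of endosomes, was lower by -0.80, -0.88 and -0.81 (SE 0.124). SLC30A9 was lower by -0.24, -0.28 and -0.30 (SE 0.068), and at 0 Gy not past the threshold without replicate 2 of degron (++) or replicate 1 of degron (-).

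Of the 11 copper genes, 3 were higher and 6 lower at 0 Gy. The copper importer SLC31A1 was higher at 20.4 to 26.1 against 10.4 to 11.9 FPKM, by 1.01, 1.13 and 0.85 (SE 0.068), and its relative SLC31A2 by 1.33, 1.27 and 1.29 (SE 0.082). The copper-exporting ATPase ATP7B was lower at 0.190 to 0.346 against 1.83 to 2.45 FPKM, by -1.23, -1.48 and -1.28 (SE 0.095). CCS, the copper chaperone of superoxide dismutase, was lower by -1.07, -0.98 and -0.90 (SE 0.052).

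In the metal stress response list, 4 of 10 tested genes were higher and 4 lower at 0 Gy. HMOX1, the heme oxygenase that metals and oxidants induce, was lower in degron (++) cells, at 4.40 to 7.01 against 33.7 to 41.2 FPKM, with log2 differences of -2.60, -2.56 and -2.19 (SE 0.118, adjusted p at most 2.53e-07, limma). SLC7A11, the cystine importer, was higher by 1.0, 1.09 and 0.81 (SE 0.069), and TXNRD1, a thioredoxin reductase, by 0.87, 0.88 and 0.66 (SE 0.035). BAG3, a co-chaperone of heat shock proteins, was lower by -0.42, -0.52 and -0.44 (SE 0.049). HMOX1 was therefore lower in degron (++) cells as MT2A was, while SLC7A11 and TXNRD1 were higher.

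Of 6 glucocorticoid targets tested, 3 were higher and 3 lower in each condition. KLF9, a receptor-induced transcription factor, was higher by 1.73, 1.57 and 1.51 (SE 0.082) and the kinase SGK1 by 1.42, 1.76 and 1.48 (SE 0.063). FKBP5, a co-chaperone of the receptor, was lower by -1.40, -1.54 and -1.38 (SE 0.077) and the phosphatase DUSP1 by -0.99, -1.0 and -0.85 (SE 0.10).

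**Figure D5:**
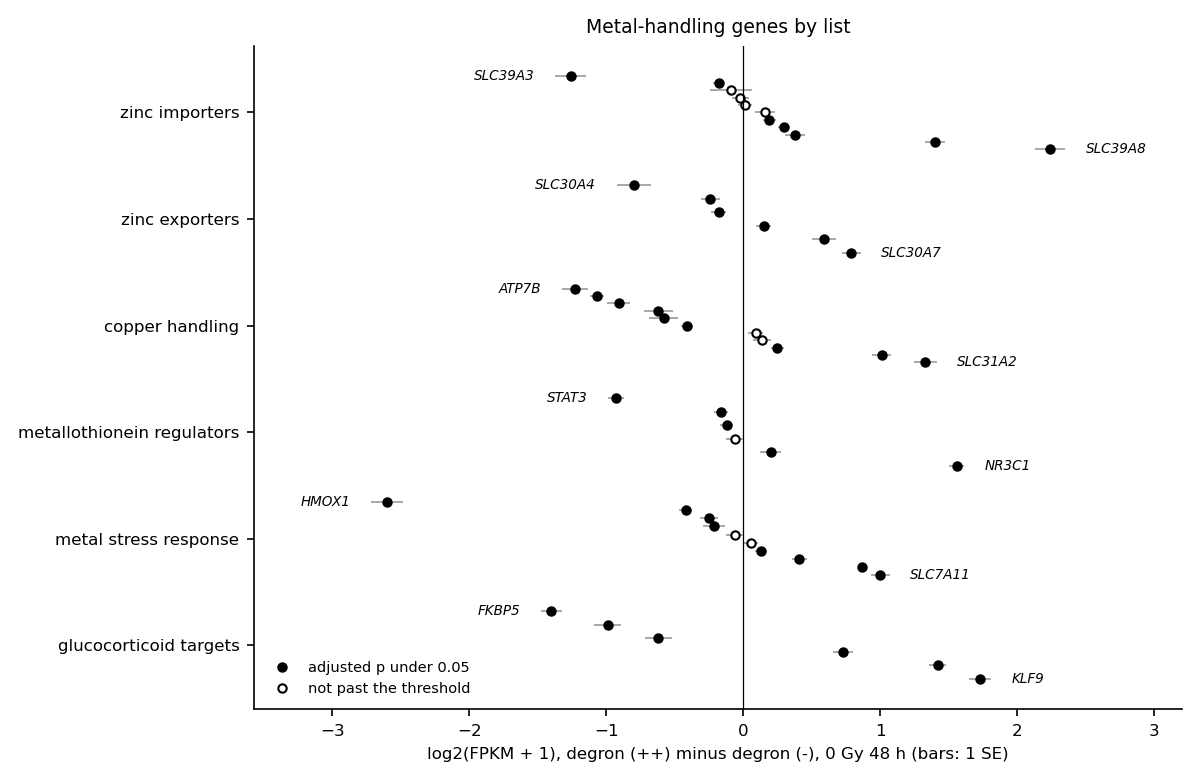
Difference of log2(FPKM + 1) between degron (++) and degron (-) cells at 0 Gy and 48 h (horizontal axis) for the 50 tested metal-handling genes, by list. Points are genes, bars are 1 SE, filled points passed the threshold, and the lowest and highest gene of each list is named. Each list holds genes on both sides of 0, from HMOX1 at -2.60 to SLC39A8 at 2.24.

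With dose, 2 of the 50 metal-handling genes were past the threshold among degron (++) libraries and 5 among degron (-) libraries, all higher after 4 Gy, beside 1.82% of all genes (1.42% higher) and 4.73% (3.85% higher). After TPM rescaling the counts were 1 and 2, and in a fit of only the compared libraries both were 0. SGK1 was higher in both, by 0.74 and 0.68 (SE 0.063, adjusted p = 0.00531 and 0.0015, limma). CCS was the other gene in degron (++) cells, and SLC39A8, ATOX1, SLC7A11 and TXNRD1 were the others in degron (-) cells, with differences of 0.17 to 0.55. With time, 0 of these genes passed in degron (++) libraries, beside 1.21% of all genes, whereas SGK1 and NR3C1 were higher and COX11 lower at 48 h than at 30 h in degron (-) cells, beside 7.18% of all genes. The latter count was 1 after TPM rescaling and 0 in a fit of only the compared libraries. MTF1 differed by 0.02 and -0.01 with dose and SLC30A1 by 0.15 and 0.19, all short of the threshold. In the interactions of dose and of time with population, 0 of the 50 genes passed (limma), beside 0.0772% and 3.23% of all genes, and 1 did with time at a pseudocount of 0.1. By unadjusted p under 0.05, 2050 of all 12946 genes passed with time in degron (++) cells, and 1758 and 2316 passed in the interactions. A difference that missed the threshold is not shown to be absent.

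The genes with a pattern most like that of MT2A over the 12 libraries were PROCR (Pearson's r = 0.998), MT1A (0.997), TM4SF1 (0.997), PCOLCE2 (0.997) and EDN1 (0.996). These correlations mostly follow the difference between the populations, which all 12 points share, and are given as a description. MT1L (0.990) held place 121, MT1M (0.980) place 1094 and MT1E (0.944) place 2922, so many genes outside the family were more like MT2A. MT1X (0.146) held place 6374 and MT1F (-0.530) place 7569. The members were themselves chosen by the difference between the populations. After the mean of each population was taken off, PROCR (0.941), GRINA (0.941), MFAP5 (0.932), MED17 (0.931) and PARD6B (0.927) came first. These are the highest of very many correlations over 12 libraries, still hold differences with dose and time, and are also a description. MT1A held place 14 with 0.900, and the other members had lower values, from 0.712 for MT1L to -0.183 for MT1F.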

How the data were processed

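RNA of 12 libraries, 2 in each of 6 groups, was sequenced by the authors. Per the labels, total RNA was extracted with a miRNeasy Micro kit and libraries were made with a TruSeq stranded mRNA kit. The submitters' processing notes name TopHat2 2.1.1, Bowtie2 2.2.8, SAMtools 0.1.18, Cuffdiff 2.2.1 and hg19. The deposited values are FPKM per gene symbol, computed by the authors, with no read counts, so the depth behind a value is unknown beyond the relative depth in the report. The read length and the handling of reads that map to several copies are not given in the sources used here, and reads shared by metallothionein copies may have been split between them.

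Groups came from the labels. The deposited FPKM were turned to log2(FPKM + 1), which understates the change of low genes, and genes with at least 1 FPKM in at least 2 libraries were kept. A model with 6 group means over all 12 libraries was fitted with limma 3.58.1 (eBayes with trend, R 4.3.3), and p-values were adjusted over 12946 genes by Benjamini and Hochberg. A gene passed the threshold at an adjusted p under 0.05. The fit was tested on simulated data. The 9 comparisons were the populations in each of the 3 conditions, dose and time within each population, and their interactions with population. Text and tables were made with Python 3.11.15, numpy 2.4.6, pandas 2.3.3, scipy 1.17.1 and matplotlib 3.10.9.

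The members and the gene lists were chosen with earlier results of these data known. Named genes were the members, the other metallothionein symbols, MTF1 and SLC30A1, up to 4 genes of each list with the largest differences past the threshold at 0 Gy and 48 h, 5 neighbors on each side of the cluster, and the 5 genes most like MT2A. A flanking gene, a marker and a sequence are not reported here. A count of 5 or fewer genes was also named in full, after its values were seen. Coding sequences came from GENCODE transcripts and promoters from RefSeq (GRCh38.p14), and gene order from RefSeq. Alternatives were a pseudocount of 0.1, filters at 0 or 5 FPKM in place of 1, rescaling each library to the same sum (TPM), quantile normalization, no trend, the replicate number as a block, a fit of only the compared libraries, and leaving out each library in turn.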

Additional observations from a re-analysis of the deposited data

Results flagged for a closer look

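MT1X differed in opposite directions with time in the populations. Between 30 h and 48 h with 4 Gy it differed by 0.24 (log2) in degron (++) cells and by -0.28 in degron (-) cells. In degron (++) cells it went from 39.9 and 36.1 to 42.0 and 48.2 FPKM. In degron (-) cells it went from 47.5 and 48.8 to 38.4 and 40.6 FPKM. The time points did not overlap in either population. The difference between these effects was 0.52 (SE 0.168), between 0.42 and 0.62 with 1 library left out. Like all differences of members, it is given without a p-value. MT1F differed in opposite directions with dose. At 48 h it had 5.43 and 5.64 FPKM at 0 Gy and 4.94 and 2.49 at 4 Gy in degron (++) cells, and 2.47 and 2.2 at 0 Gy and 2.74 and 2.96 at 4 Gy in degron (-) cells. The difference between the dose effects was -0.73 (SE 0.332) and is also given without a p-value. It was -1.11 without replicate 1 and -0.35 without replicate 2 of degron (++) at 4 Gy and 48 h. Both were picked out because every library of a population lay on the same side, a pattern that 2 libraries a group can show without a true difference.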

How the results depend on the processing

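The counts of metal-handling genes past the threshold between the populations stayed within 1.5 times of 41, 42 and 37 under every alternative run. With dose in degron (++) cells the count was 2, and it was 4 with a filter at 5 FPKM, 1 with no filter, quantile normalization, TPM rescaling, no trend or the replicate block, 0 in a fit of only the compared libraries, and 0 to 1 with a library left out (0 without replicate 1 at 0 Gy). With dose in degron (-) cells it was 5, and it was 2 with no filter or TPM rescaling, 3 with no trend or the replicate block, 0 with only the compared libraries and 1 to 3 with a library left out. With time in degron (-) cells it was 3, and it was 1 with no filter or TPM rescaling, 0 with only the compared libraries and 1 to 2 with a library left out. In the interaction with time it was 0, and it was 1 with a pseudocount of 0.1 or a filter at 5 FPKM, and 0 to 1 with a library left out (1 without replicate 1 of degron (-) at 4 Gy and 48 h). The cause of these changes was not tested. The ratios of the summed metallothionein FPKM of 3.69, 3.55 and 3.24 were 4.27, 4.32 and 3.89 after TPM rescaling and 4.09, 4.21 and 3.83 after quantile normalization.

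Whether replicate numbers pair libraries of different groups was not tested beyond the correlations and the replicate block given here. Over the 15 pairs of groups, the correlation of deviations from the group means was between -0.038 and 0.122, and 2 pairs were over 0.1. The replicate block, beside the counts given above, moved no other count of these genes by over 1.5 times. Of the differences of single members, 689 alternative values moved by less than the spread between libraries and 123 by more. With 2 libraries a group and no counts, small differences of MT1X, MT1F and MT1M could not be resolved.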
